A study of Homo sapiens with 8 samples.

Results

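NMR overexpression was compared with its control in KYSE70 and KYSE450, established lines of human esophageal squamous cell carcinoma. The comparison uses the 4 of 8 libraries that the labels place in the overexpression arm: 1 overexpression and 1 control library from each line, paired by line. For overexpression, a PCDNA3.1 plasmid was transfected with Lipofectamine 3000; what the control cells received is given only as control. All 4 libraries come from total RNA of cells at passages 5 to 10, and the study's other 4 libraries hold a lentiviral knockdown of NMR, made with virus from HEK 293T cells, and its own control. Each group holds 1 library of a line, so n = 2 lines stands behind every value shared by the lines, and a change within 1 line has no replicate check. The labels name no separate cultures beyond the lines, so the p-values do not measure a spread between cultures.

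NMR is a long noncoding RNA, a transcript that is not translated; such RNAs can act by binding proteins that modify RNA or chromatin. Squamous epithelium of the esophagus keeps a basal layer, held to the basement membrane by laminins and integrins and marked by the transcription factor p63 and the keratins 5 and 14. Squamous carcinoma lines usually retain parts of that basal programme. No gene is listed under the name NMR, so the level of the overexpressed RNA was not analysed here and the labels were not checked on it.

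The libraries held 27052164 to 31419447 reads recovered from the deposited values. Log2(FPKM + 1) correlated at 0.996 within KYSE70 and 0.994 within KYSE450, and at 0.829 to 0.839 between the lines. None of the 18 genes of a basal squamous list was listed at 0 in any of the 4 libraries, and their summed level was 13445 to 29926 FPKM. Some were low, such as KRT16 with 1 read in the KYSE70 control, so this is a weak check of the squamous label. The summed level of 8 fibroblast markers was 32.7 to 37.4 FPKM, with 2 at 0. The summed level of 9 immune cell markers was 0.352 to 0.794 FPKM, with 3 to 5 of the 9 at 0, and that of 6 listed endothelial markers was 0.965 to 4.41 FPKM, with 2 or 3 at 0.

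The sequences that the results below return to are 3 promoters and the start of 1 noncoding transcript. The promoters are the 250 bases before the annotated start in the RefSeq table of GRCh38.p14, 5′ to 3′ on the gene's strand. GPNMB (chr7:23246525-23246774, + strand) is shown because it had the lowest adjusted p of the comparison together with IGFBP5. The capitals mark the 7 letters TCATGTG, the core of the M-box bound by MITF and TFE factors, searched on both strands; both matches, 123 and 62 bases before the start, are on the opposite strand. CHAC1 (chr15:40953221-40953470, + strand) and ASNS (chr7:97872409-97872658, - strand) are shown because both were at least 2-fold higher in KYSE450 and not in KYSE70. Their capitals mark TGATGNAA, the core of the amino acid response element, on the opposite strand in CHAC1 and the gene's strand in ASNS. The table gives ASNS 2 windows; the one shown holds the match and the other does not.
GPNMB: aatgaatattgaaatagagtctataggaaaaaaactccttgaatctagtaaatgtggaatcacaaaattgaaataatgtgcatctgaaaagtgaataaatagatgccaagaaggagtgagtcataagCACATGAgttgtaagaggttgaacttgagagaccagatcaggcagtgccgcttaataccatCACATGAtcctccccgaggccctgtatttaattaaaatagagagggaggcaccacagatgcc
CHAC1: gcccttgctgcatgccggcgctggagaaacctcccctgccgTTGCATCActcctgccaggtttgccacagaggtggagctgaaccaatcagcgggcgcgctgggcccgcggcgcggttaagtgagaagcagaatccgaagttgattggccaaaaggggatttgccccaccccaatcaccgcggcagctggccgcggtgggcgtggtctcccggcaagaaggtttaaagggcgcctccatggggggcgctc
ASNS: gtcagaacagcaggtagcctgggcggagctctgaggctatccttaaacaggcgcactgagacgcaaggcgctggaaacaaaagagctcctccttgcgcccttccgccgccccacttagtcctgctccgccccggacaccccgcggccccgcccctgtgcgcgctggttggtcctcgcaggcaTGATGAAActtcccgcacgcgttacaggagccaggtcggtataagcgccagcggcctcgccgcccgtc

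TCATGTG occurred in 2.52% and TGATGNAA in 3.14% of the 35116 promoter windows of 250 bases in the table. Both matches are descriptions of letters, and binding was not measured. The fourth sequence belongs to RP11-242F24.1, called LINC01672 in GENCODE release 29, a noncoding gene in a stretch between protein-coding genes at chr1:6724637-6730012 on GRCh38. It is shown because its reads were found almost wholly in the overexpression libraries. Of its 5 annotated transcripts, 2 share their first 214 bases, in lower case throughout because no motif was searched.
LINC01672: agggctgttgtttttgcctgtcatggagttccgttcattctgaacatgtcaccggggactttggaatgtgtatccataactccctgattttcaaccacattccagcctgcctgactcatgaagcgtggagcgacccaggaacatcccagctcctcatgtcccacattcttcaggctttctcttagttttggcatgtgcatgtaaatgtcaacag

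RP11-242F24.1 had 0 reads in both controls and 24 reads in KYSE70 and 100 reads in KYSE450 with overexpression. These reads correspond to 0.933 and 3.99 FPKM. The remaining 4 libraries of the study held 1 read of it, in the KYSE450 knockdown control. Against a floor of 3 reads per control library, its level was at least 8.39-fold higher in KYSE70 and at least 30.9-fold higher in KYSE450. It was the 1 gene with at least 10 reads in both overexpression libraries and at most 2 in each of the other 6, and 0 genes had the reverse pattern; this screen was chosen after the values were seen. No label or reference table used here pairs this gene with NMR, and whether its reads come from the plasmid or from the chromosome was not tested.

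In limma on log2(FPKM + 1), with line as a block, 10 genes rose (0.0715% of the 13977 genes tested) and 2 fell (0.0143%) at an adjusted p under 0.05, the threshold for a call throughout. There were 919 genes (6.58%) with an unadjusted p under 0.05. The fit of these 4 libraries alone was chosen with the knowledge that an earlier analysis called 12 genes in such a fit and none in a fit of all 8 libraries. It has 1 residual degree of freedom, to which limma adds 14.0 prior ones estimated over all genes. Most of a gene's SE therefore comes from the spread of other genes. A small SE can stand beside changes that differ between the lines, as for KRT14 below. The calls were lost, to 0, with all 8 libraries in the fit, no block or another scaling. They were also lost with a pseudocount of 0.1, no filter or removal of GC and length trends. With all 8 libraries, 146 genes (1.04%) had an unadjusted p under 0.05. Leaving out 1 of the 4 libraries makes the change rest on 1 line, so the calls could not be checked in that way. The words rose and fell for single genes below carry that limit.

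The genes that rose encode a lysosomal membrane protein, a growth factor binding protein, a basal keratin, a transcriptional regulator, a stress protein, a vault protein and an endocytic receptor. GPNMB, a transmembrane glycoprotein of melanosomes and lysosomes, stood at 8.07 FPKM in the control and 15.9 with overexpression in KYSE70, and at 13.3 and 46.4 FPKM in KYSE450. Both overexpression libraries lay above both controls. The log2 change was 0.90 and 1.73, with a mean of 1.32 (SE 0.15, n = 2 lines, limma adjusted p 0.00348).

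IGFBP5, a secreted protein that binds insulin-like growth factors, stood at 4.64 and 8.87 FPKM in KYSE70 and at 52.8 and 175 FPKM in KYSE450, control first. The lines differ in level by more than the change, so the groups overlap, while the overexpression library was the higher one in each line. The log2 change was 0.81 and 1.71, with a mean of 1.26 (SE 0.15, n = 2 lines, limma adjusted p 0.00348). KRT14, the keratin of the basal layer that pairs with KRT5, stood at 3.20 and 5.08 FPKM in KYSE70 and at 371 and 1211 FPKM in KYSE450. The log2 change was 0.53 and 1.71, with a mean of 1.12 (SE 0.17, n = 2 lines, limma adjusted p 0.0257). Its KYSE70 levels were 0.863% and 0.419% of those in KYSE450. The median trace of KYSE450 in KYSE70, described below, was 0.263% in the control and 0.135% with overexpression, over 20 markers that do not include KRT14.

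ZNF703, a zinc finger repressor, stood at 28.6 and 40.8 FPKM in KYSE70 and 6.61 and 13.7 FPKM in KYSE450. NDRG1, induced by hypoxia and other stresses, stood at 70.1 and 93 FPKM in KYSE70 and 12.5 and 25.6 FPKM in KYSE450. MVP, the major protein of vault particles, stood at 8.38 and 12.7 FPKM in KYSE70 and 29.6 and 49.2 FPKM in KYSE450. LRP1, a large endocytic receptor, stood at 29.9 and 40.2 FPKM in KYSE70 and 83.6 and 144 FPKM in KYSE450. In these 4 genes the overexpression library was above its own control in both lines, and the mean log2 changes were 0.59 for LRP1, 0.63 for MVP, 0.69 for NDRG1 and 0.72 for ZNF703 (limma adjusted p 0.0298 to 0.0334).

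The other genes that rose are noncoding. RP11-242F24.1, described above, had a mean log2 change of 1.63 (SE 0.24, n = 2 lines, limma adjusted p 0.0257). RP11-159F24.5, annotated as antisense, went with 24 and 61 reads in KYSE70 and 14 and 43 in KYSE450, and a mean log2 change of 0.97 (SE 0.15, n = 2 lines, limma adjusted p 0.0257). The sources used here give no strand setting for the counting, so its reads and those of the gene on the opposite strand cannot be told apart. The tenth is a processed copy of CD24 on chromosome Y, whose values are not given here and whose reads may be shared with CD24.

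The genes that fell were VWA5B2 and RP11-331F9.10. VWA5B2, a protein with a von Willebrand factor A domain, stood at 20.7 and 13.6 FPKM in KYSE70 and 49.1 and 30.8 FPKM in KYSE450. The log2 change was -0.58 and -0.65 (mean -0.62, SE 0.10, n = 2 lines, limma adjusted p 0.0257). RP11-331F9.10 carries the identifier of RMRP in GENCODE release 29, the RNA of the ribonuclease MRP complex that processes ribosomal RNA. It rested on 38 and 19 reads in KYSE70 and 31 and 9 reads in KYSE450, control first. Of the 12 calls (0.0859%), 8 were among the 27 (0.193%) made by limma's voom on the recovered reads. They include VWA5B2 and each of the protein-coding genes above except NDRG1 (voom adjusted p 0.0897). RP11-159F24.5 and RP11-331F9.10 were not called there (voom adjusted p 0.259 and 0.471). The 27 also held MMP10, at -0.13 in KYSE70 and 1.31 in KYSE450 (voom adjusted p 0.00466). A voom call therefore does not need a change shared by the lines.

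**Figure D1:**
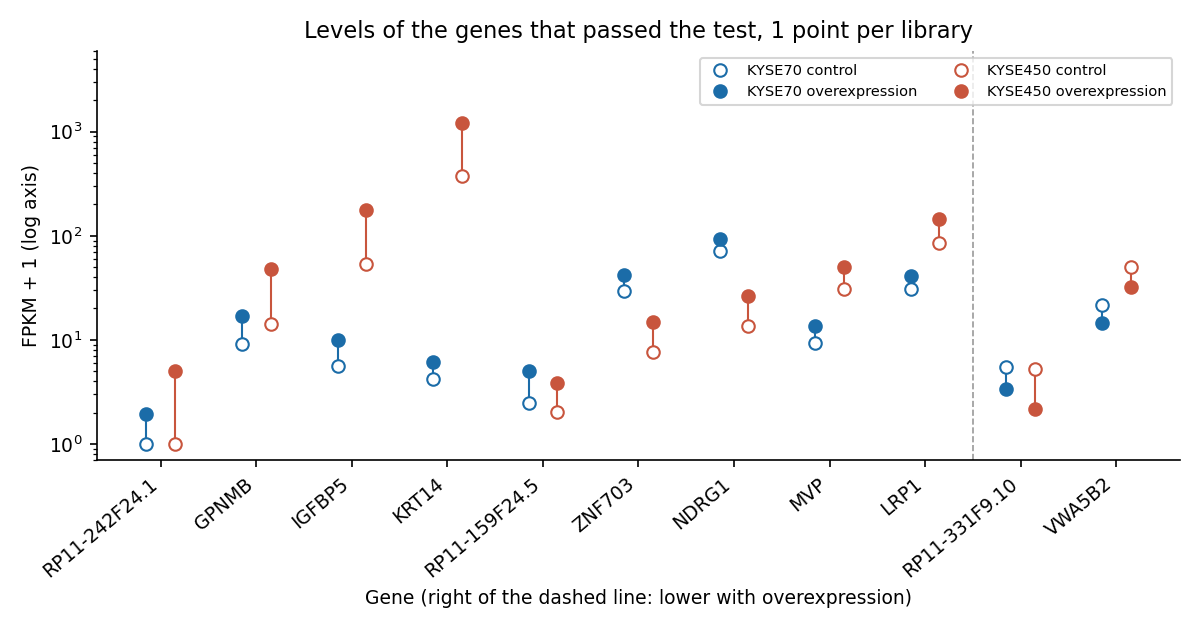
Level of each gene that passed the test, as FPKM + 1 on a log axis, with 1 point per library (open: control, filled: overexpression, blue: KYSE70, red: KYSE450); the processed CD24 copy is left out. In each of the 9 genes left of the dashed line the filled point lies above the open one in both lines, as for KRT14 at 371 and 1211 FPKM in KYSE450, and in the 2 genes at the right it lies below.

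The knockdown pairs give these genes a second manipulation with its own controls. Of the 9 genes described as higher with overexpression, 5 were also above 0 in both knockdown pairs: GPNMB, IGFBP5, ZNF703, NDRG1 and LRP1. Of all genes, 27% were above 0 in both. IGFBP5 stood at 3.26 in KYSE70 and 1.76 in KYSE450 with knockdown, above its changes with overexpression, and KRT14 at 3.10 and -0.38, on the log2 scale. NDRG1 stood at 1.23 in KYSE70 and 0.91 in KYSE450 with knockdown, and LRP1 at 0.49 and 0.56. VWA5B2 stood at -0.38 and 1.08. The difference between the overexpression and knockdown changes was called for 0 genes in limma on all 8 libraries. There, 686 genes (4.91%) had an unadjusted p under 0.05, and the smallest adjusted p was 0.380. Limma on the same 8 libraries also called 0 genes for overexpression against its control (smallest adjusted p 0.9998). The 0 calls therefore do not show that the changes with overexpression and knockdown are alike. The control levels also differed between the arms: VWA5B2 stood at 49.1 FPKM in the KYSE450 overexpression control and at 2.75 FPKM in the KYSE450 knockdown control.

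Across all genes, the changes in the lines had little in common. The Pearson correlation of the log2 changes was 0.036 and the Spearman correlation 0.033 over 13977 genes, and 48.6% of genes had opposite signs; genes are not independent replicates. The SD of the change over genes was 0.19 in KYSE70 and 0.23 in KYSE450. In KYSE70, 17 genes were at least 2-fold higher (0.122%) and 14 at least 2-fold lower (0.1%). In KYSE450, 43 were at least 2-fold higher (0.308%) and 14 at least 2-fold lower (0.1%). On the log2(FPKM + 1) scale of these counts, no gene differed at least 2-fold the same way in both lines. On this scale 0 of the 1250 noncoding genes tested were at least 2-fold higher in both. The scale understates changes of low genes, so the counts do not hold for FPKM itself. RP11-159F24.5 stood at 1.49 and 3.97 FPKM in KYSE70 and at 1.01 and 2.87 FPKM in KYSE450, control first. With a log2 change of at least 0.32, 101 genes (0.723%) were higher and 52 (0.372%) lower in both lines. These counts have no test, and with a pseudocount of 0.1 or a minimum of 5 FPKM they moved by over 1.5 times.

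**Figure D2:**
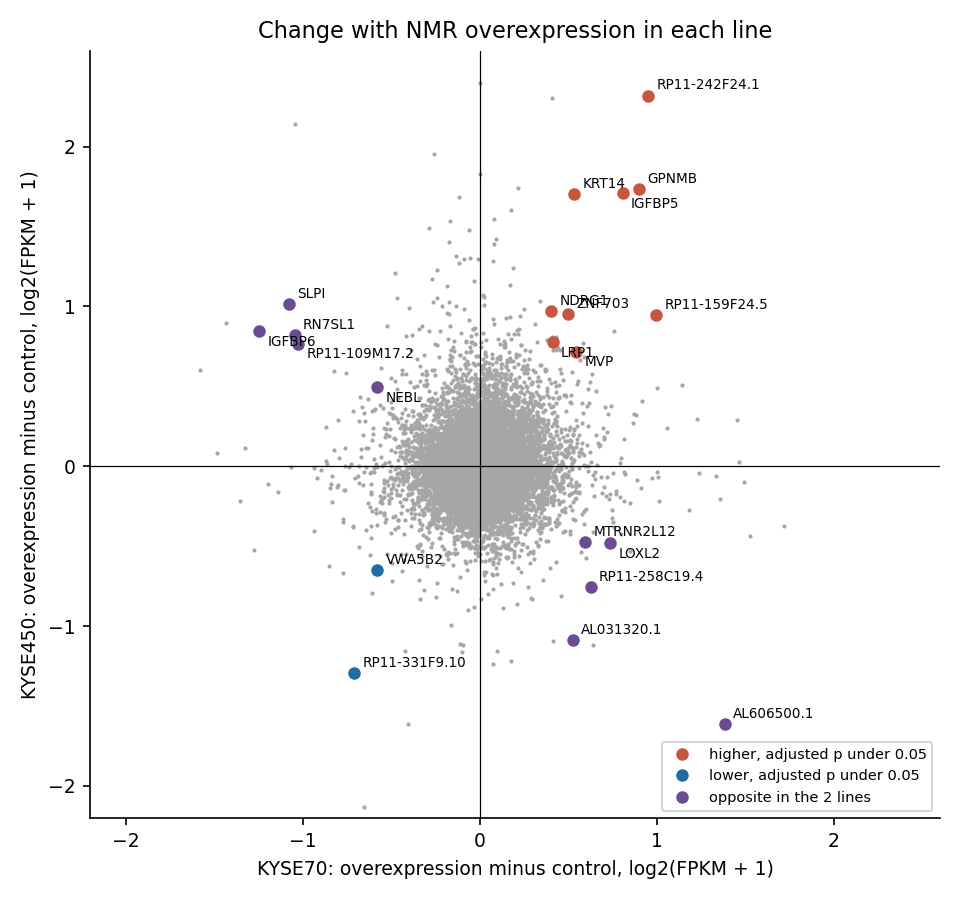
Change with overexpression in KYSE70 (x axis) and KYSE450 (y axis), log2(FPKM + 1), with 1 grey point for each of 13975 genes tested outside chromosome Y and XIST; red and blue points passed the test and purple points have opposite signs in the lines. The cloud shows no slope (Pearson 0.036), and GPNMB, IGFBP5 and KRT14 lie apart at the upper right.

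Other genes were higher in both lines without passing the test. When genes with a mean of at least 5 FPKM were ordered by the smaller of their changes, GPNMB, IGFBP5, MVP, KRT14 and ZNF703 led, followed by PRSS23. PRSS23, a secreted serine protease, stood at 7.99 and 17.0 FPKM in KYSE70 and 5.91 and 8.70 FPKM in KYSE450 (mean log2 change 0.75, SE 0.14, n = 2 lines, limma adjusted p 0.0600). Both overexpression libraries were above both controls. TACC2, a centrosomal protein, stood at 7.68 and 11.1 FPKM in KYSE70 and 9.27 and 13.0 FPKM in KYSE450. RHOU, a small GTPase, FAM110C and the forkhead factor FOXO6 had mean log2 changes of 0.59, 0.46 and 0.44, with adjusted p of 0.128 to 0.397 in limma.

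On the lower side, the ranking gave VWA5B2 first. WNT11, a secreted ligand of noncanonical WNT signalling, stood at 31.4 and 23.2 FPKM in KYSE70 and 17.0 and 7.10 FPKM in KYSE450, and just missed the threshold (mean log2 change -0.79, SE 0.14, n = 2 lines, limma adjusted p 0.0520). GAB2, a docking protein of receptor tyrosine kinases, stood at 7.87 and 5.59 FPKM in KYSE70 and 6.46 and 3.96 FPKM in KYSE450. Both overexpression libraries of GAB2 were below both controls. DAPK1, a death-associated kinase, stood at -0.67, the metal-binding protein MT2A at -0.43, the laminin chain LAMA1 at -0.53 and the exon junction protein MAGOHB at -0.40 in mean log2 change, with adjusted p of 0.22 to 0.25 in limma. The 3 further names are RP11-330M2.7, the antisense RNA RP11-669N7.2 and the pseudogene RP11-632C17__A.1, whose reads may be shared with other genes.

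Genes of basal squamous identity mostly stood higher in both lines. Of the 18 tested, 16 had a mean change above 0, against 46.3% of all genes, and 14 were above 0 in both lines, against 22.8%. The median change was 0.20 (KYSE70) and 0.42 (KYSE450), where the medians over all genes were 0.00 and -0.03, and 12 of the 18 had an unadjusted p under 0.05. KRT14 rose and the other 17 did not pass. TP63, the p63 gene, stood at 140 and 189 FPKM in KYSE70 and 233 and 307 FPKM in KYSE450, an even log2 change of 0.43 and 0.40 (limma adjusted p 0.159). KRT5 stood at 8172 and 10460 FPKM in KYSE70 and 14239 and 19246 FPKM in KYSE450. Among the desmosomal members, DSC3 had log2 changes of 0.28 and 0.41, DSG3 of 0.09 and 0.47 and PKP1 of 0.12 and 0.50, KYSE70 first. SOX2, a transcription factor of squamous carcinomas, stood at 0.03 and -0.02, and KRT17 at -0.09 and 0.06. In KYSE450 the knockdown control held 654 FPKM of TP63, above both libraries of the overexpression arm. For KRT14 it held 921 FPKM, between those libraries, and for ITGB4 0.331 FPKM, below both.

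The integrin and laminin list, which shares ITGA6, ITGB4 and LAMB3 with the basal list, had 16 of 17 members with a mean above 0 (all genes: 46.3%). It had 12 above 0 in both lines (all genes: 22.8%). No member passed the test, and its median change was 0.28 (KYSE70) and 0.23 (KYSE450). LAMA3 and LAMB3, laminin chains of the basement membrane that anchors the basal layer, were above 0 in both lines. LAMA3 had log2 changes of 0.28 and 0.67, and LAMB3 of 0.29 and 0.23. The integrin chains ITGB4 (0.31 and 0.59) and ITGA6 (0.05 and 0.40) were above 0 as well, with ITGB4 in KYSE450 at a low level of 0.716 and 1.58 FPKM. LAMB1 was the 1 member with a mean below 0, at 0.17 in KYSE70 and -0.26 in KYSE450. The list does not hold the laminin chain LAMA1, which was lower in both lines (-0.34 in KYSE70 and -0.71 in KYSE450). LAMA3 stood at 12.4 and 20.3 FPKM in KYSE450, below the 39.7 FPKM of the knockdown control of that line. ITGA3 stood at 168 and 238 FPKM there, above the 109 FPKM of that control.

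Of the insulin-like growth factor axis, 10 of 11 tested members had a mean above 0 (all genes: 46.3%). Of these members, 8 were above 0 in both lines (all genes: 22.8%), and the list medians were 0.27 in KYSE70 and 0.19 in KYSE450. IGFBP5 rose and the others did not pass. IGFBP3, a binding protein that p53 and p63 regulate, stood at 1152 and 1356 FPKM in KYSE70 and 46.9 and 80.0 FPKM in KYSE450. The receptor genes IGF1R (0.27 and 0.18) and INSR (0.28 and 0.23) and the adaptor IRS1 (0.56 and 0.19) were above 0 in both. IGFBP6 was the member below 0, and had opposite signs in the lines, as given below.

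Cell cycle genes lay slightly below 0, mostly in KYSE450. Of 25 mitotic genes, 24 had a mean change below 0, against 53.7% of all genes, and 15 were below 0 in both lines, against 27.8% of all genes; the median change was -0.02 (KYSE70) and -0.19 (KYSE450). All 28 tested genes of DNA replication and the G1/S transition had a mean below 0, and 19 were below 0 in both lines, with medians of -0.05 and -0.14. None passed the test. The cyclin gene CCNA2 stood at 56.5 and 53.5 FPKM in KYSE70 and 20.9 and 15.4 FPKM in KYSE450. GINS2, a subunit of the replicative helicase, was among the more even, at -0.26 and -0.22.

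**Figure D3:**
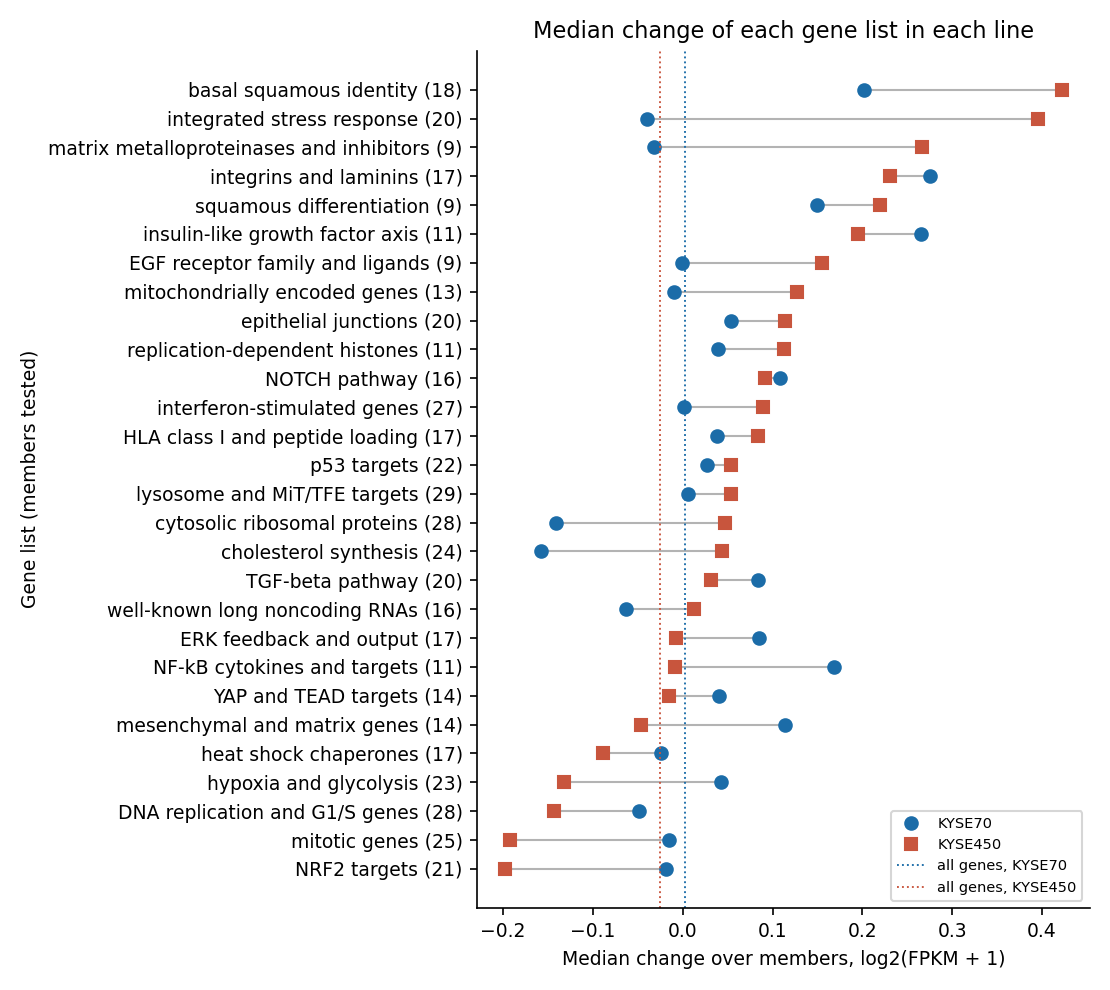
Median change over the tested members of each gene list with at least 9 of them, in KYSE70 (blue circles) and KYSE450 (red squares), log2(FPKM + 1); dotted lines mark the medians over all genes, 0.00 and -0.03. Basal squamous, integrin and laminin, and insulin-like growth factor lists lie right of the dotted lines in both lines, whereas the integrated stress response median is 0.40 in KYSE450 and -0.04 in KYSE70.

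Genes of the integrated stress response had a median change of 0.40 in KYSE450 and -0.04 in KYSE70, a difference that has no test. This pathway couples amino acid shortage and other stresses, through the transcription factor ATF4, to amino acid synthesis genes. Of 20 tested members, KYSE450 had 18 above 0 (all genes: 43.9%) and KYSE70 had 6 (all genes: 50.8%), and no member passed the test. CHAC1, which degrades glutathione, stood at 5.67 and 5.66 FPKM in KYSE70 and at 2.24 and 10.5 FPKM in KYSE450. ASNS, asparagine synthetase, stood at 51.9 and 49.8 FPKM in KYSE70 and at 48.0 and 136 FPKM in KYSE450. The 95% counting interval of the log2 ratio of reads was -0.15 to 0.03 in KYSE70 and 1.42 to 1.58 in KYSE450. The serine synthesis genes PSAT1 and PHGDH stood at 1.0 and 0.75 in KYSE450 and at -0.21 and 0.01 in KYSE70. DDIT4 (0.76), STC2 (1.12) and ATF4 itself (0.36) were above 0 in KYSE450 too. In KYSE450 the knockdown control held 314 FPKM of ASNS and 47.6 FPKM of CHAC1, above both libraries of the overexpression arm, so the range between the controls of that line was wider than the change. Of the 21 genes of the list, tested or not, 19 had a promoter window. Among these 19, 4 held TGATGNAA in at least 1 window, CHAC1 and ASNS among them, against 3.89% of the 27305 genes in the table. By window, 4 of 30 held it, against the 3.14% given above. The list was built from this pathway, so a share above that of all genes says nothing about the changes here.

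**Figure D4:**
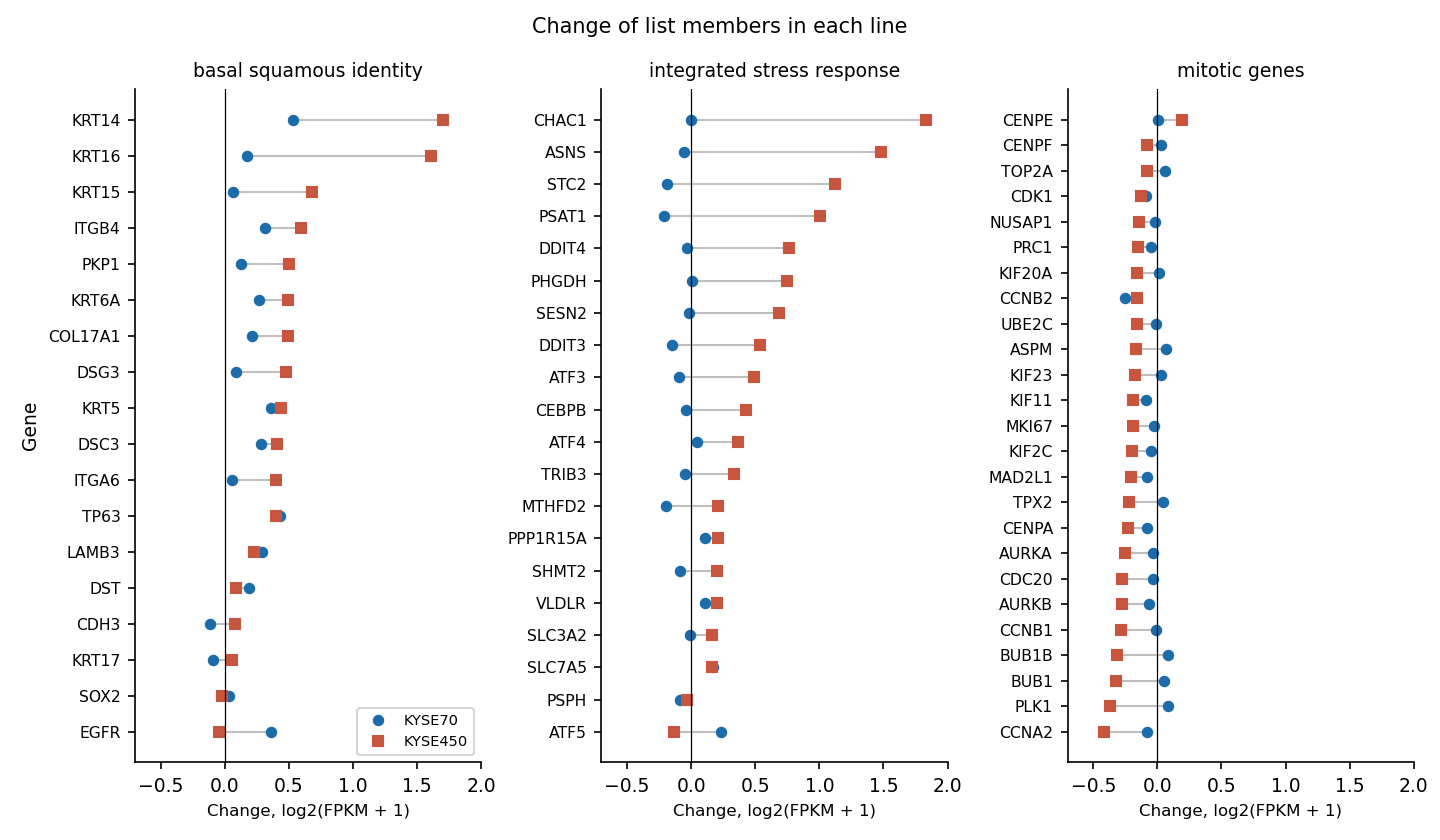
Change of every tested member of 3 gene lists in KYSE70 (blue circles) and KYSE450 (red squares), log2(FPKM + 1). Basal squamous members lie mostly right of 0 in both lines, stress response members such as CHAC1 (1.83 in KYSE450) do so in KYSE450, and mitotic members such as CCNA2 (-0.08 and -0.42) lie left of 0 in KYSE450.

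Genes with at least a 2-fold change in 1 line, a log2 change under 0.25 either way in the other and at least 5 FPKM in 1 library were counted apart. In KYSE450 there were 21 higher (0.15%) and 4 lower (0.0286%), and in KYSE70 7 higher (0.0501%) and 5 lower (0.0358%). With 1 library per line and group the difference between the lines has no test. On the log2(FPKM + 1) scale a gene near 0 FPKM cannot show a large change, so a small change there need not mean an even level. In KYSE70, KRT16 stood at 0.0314 and 0.164 FPKM and FGFBP2 at 0.0394 and 0.206 FPKM, each on 1 and 5 reads. TNNT2 had 4 and 0 reads there.

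Besides CHAC1 and ASNS, the rule named 8 of the 21 genes higher in KYSE450, by the difference between the lines. AQP3, the glycerol and water channel of keratinocytes, stood at 2.66 and 10.8 FPKM in KYSE450, and at 0.371 and 0.267 FPKM in KYSE70. CDKN1A, the cyclin-dependent kinase inhibitor p21, stood at 11.1 and 34.3 FPKM, and at 56.1 and 59.4 FPKM in KYSE70. Of the other 21 p53 targets tested, none came near that size in KYSE450: the next were SESN2 at 0.69 and TP53INP1 at 0.68. MMP10, a stromelysin, stood at 31.4 and 79.7 FPKM in KYSE450 and at 0.597 and 0.456 FPKM in KYSE70, and MMP3 was at most 0.0714 FPKM in the 4 libraries and was not tested. KRT16, the keratin of activated keratinocytes, stood at 7.43 and 24.7 FPKM. FGFBP2 (1.74), TNNT2 (1.53) and the noncoding AC006262.5 (1.40) and RP11-48O20.4 (1.23) are the others named, with the log2 change in KYSE450.

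Several squamous differentiation genes stood higher in the same KYSE450 library. SPRR1B, a cornified envelope precursor, stood at 4.38 and 14.1 FPKM there and at 1.28 and 0.871 FPKM in KYSE70. CSTA, a protease inhibitor of the envelope, stood at 68.4 and 125 FPKM, against 6.83 and 8.14 FPKM in KYSE70. KRT1 stood at 0.757 and 3.71 FPKM. The KYSE450 knockdown control held 48.6 FPKM of SPRR1B and 247 FPKM of CSTA, above both libraries of the overexpression arm. It held 0.0174 FPKM of KRT1, below both. Of the 22 genes in the list, 9 passed the filter on low values. Of those, 7 were above 0 in KYSE450 (all genes: 43.9%) and 6 in KYSE70 (all genes: 50.8%). The imprinted noncoding RNA H19 stood at 26.8 and 107 FPKM in KYSE450 and at 1.56 and 1.14 FPKM in KYSE70.

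The genes lower in KYSE450 by this rule were ADD2, AKR1B10, CES1 and RP11-121A14.2. ADD2, a membrane skeleton protein, stood at 12.4 and 4.70 FPKM. AKR1B10, a reductase regulated by NRF2, stood at 3.58 and 1.06 FPKM in KYSE450 and at 1423 and 1523 FPKM in KYSE70. CES1, a carboxylesterase, stood at 1.24 and 0 FPKM in KYSE450 and at 926 and 864 FPKM in KYSE70. The NRF2 targets as a list had a median of -0.20 in KYSE450 and -0.02 in KYSE70, with 19 of 21 below 0 in KYSE450 (all genes: 55.9%). OSGIN1 (-0.88), AKR1C1 (-0.65) and AKR1C2 (-0.61) led beside AKR1B10, at levels of 27.2, 60.5 and 196 FPKM in the control. RP3-406P24.3 was added from a lower limit of 0.5, at -0.86.

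Genes high in 1 line were found at low levels in libraries of the other, here called the trace. The choice of markers keeps it at 1% or less. Whether these reads come from the other line was not tested. Over 11 markers of KYSE70, with at least 50 FPKM there and at most 1% of that in KYSE450, the median level in KYSE450 was 0.251% of that in KYSE70 in the controls and 0.0693% with overexpression. Over 20 markers of KYSE450, the median in KYSE70 was 0.263% and 0.135%. AKR1B10 (0.251% and 0.0693%) and CES1 (0.134% and 0%) are themselves among the 11 markers, and IGFBP6 (0.267% and 0.0150%) is among the 20, so shares of at most 1% were fixed by the choice. The median over the other 10 markers was 0.266% and 0.0612% beside AKR1B10 and 0.271% and 0.0763% beside CES1, and over the other 19 it was 0.259% and 0.139% beside IGFBP6. The part of the trace in the low values of AKR1B10, CES1 and IGFBP6 was not tested. The markers and genes of this check were chosen after the values were seen.

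All 7 genes higher in KYSE70 by this rule are named, MT-CYB in the next paragraph. NRP1, a receptor for semaphorins and VEGF, stood at 3.09 and 8.66 FPKM in KYSE70 and at 15.1 and 14.6 FPKM in KYSE450. PCDH7, a protocadherin, stood at 8.12 and 17.3 FPKM, and LTBP1, which binds latent TGF-beta, at 5.24 and 12 FPKM. CPA4, a carboxypeptidase, stood at 1.73 and 6.55 FPKM and ARHGAP29, a GTPase-activating protein, at 0.770 and 3.54 FPKM. AC006014.1 rested on 7 and 23 reads.

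The mitochondrial MT-CYB, a subunit of respiratory complex III, stood at 98.1 and 197 FPKM in KYSE70 and at 110 and 107 FPKM in KYSE450. Only MT-ND5 (0.74) and MT-ND6 (0.72) of the other 12 mitochondrially encoded genes came near its log2 change of 1.0 in KYSE70, and the list had a median of -0.01 there. The mitochondrial share of the summed FPKM was 5.17% and 5.13% in KYSE70. Ribosomal protein genes were below 0 in KYSE70 in 28 of 28 cases (all genes: 48.7%), with a median of -0.14. In KYSE450, 24 were above 0 (all genes: 43.9%). The KYSE70 change had a Spearman correlation of 0.195 with exon length across genes, against 0.012 in KYSE450, and its part in the ribosomal values was not tested. With GC and length trends removed, the log2 change of MT-CYB in KYSE70 was 1.02.

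The genes lower in KYSE70 by this rule were PI3, ST8SIA4, RP11-410L14.2, EPS8 and SOX2-OT. PI3, the elastase inhibitor elafin, stood at 33.4 and 11.3 FPKM in KYSE70 and at 0 and 0.0592 FPKM in KYSE450. SOX2-OT, the noncoding transcript that spans SOX2, stood at 52.4 and 23.2 FPKM, while SOX2 itself stood at 221 and 226 FPKM in KYSE70. EPS8, an adaptor of EGF receptor signalling to actin, stood at 11.2 and 4.84 FPKM, and ST8SIA4, a polysialyltransferase, at 6.82 and 2.06 FPKM.

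**Figure D5:**
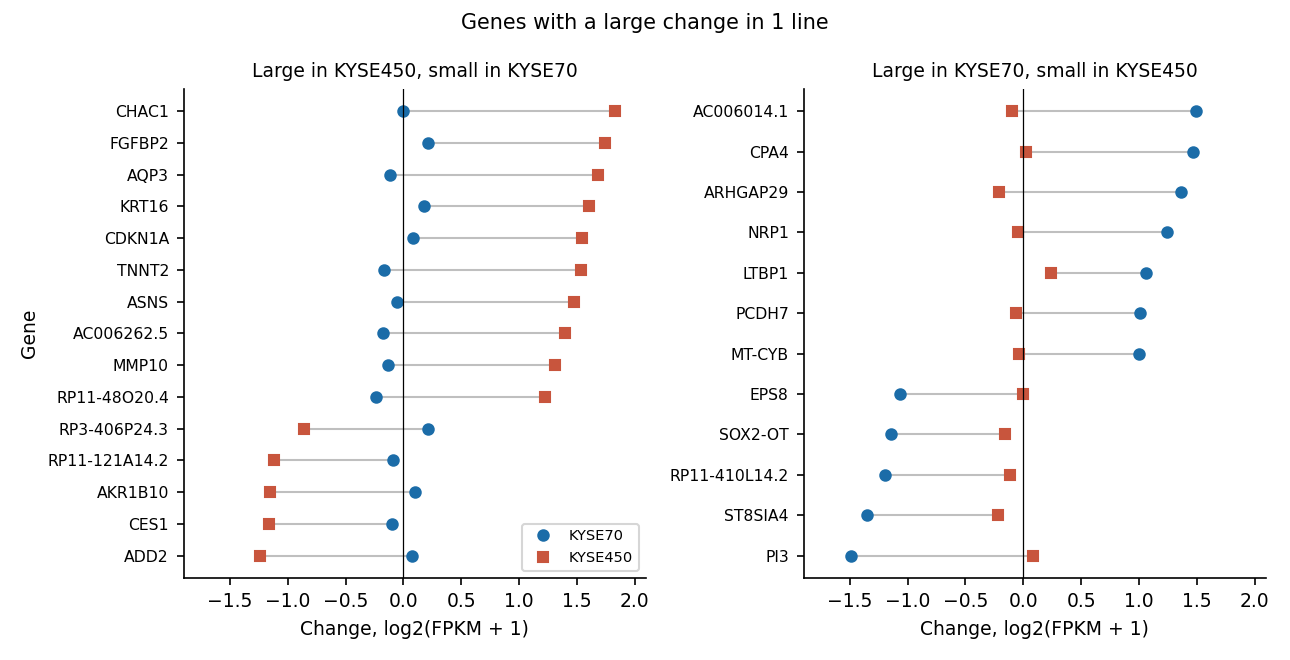
Genes with a large change in KYSE450 (left) or KYSE70 (right) and a small change in the other line, log2(FPKM + 1); blue circles are KYSE70 and red squares KYSE450, 1 library per line and group. CHAC1 lies at 1.83 in KYSE450 and near 0 in KYSE70. PI3 lies at -1.49 in KYSE70 and 0.08 in KYSE450, where it had 0 and 1 reads.

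Among genes with a mean of at least 5 FPKM, 63 (0.619%) had opposite signs with a log2 change of at least 0.3 in each line, 33 of them higher in KYSE450. SLPI, a secreted inhibitor of leukocyte proteases, stood at 159 and 74.8 FPKM in KYSE70 and at 0.433 and 1.89 FPKM in KYSE450. IGFBP6, a binding protein that prefers IGF2, stood at 1.81 and 0.182 FPKM in KYSE70 and at 678 and 1217 FPKM in KYSE450. SLPI in the KYSE450 control was at 0.272% of its KYSE70 level, near the trace given above, and at 2.53% with overexpression. LOXL2, a collagen cross-linking oxidase, stood at 5.62 and 10.0 FPKM in KYSE70 and at 3.64 and 2.33 FPKM in KYSE450, and NEBL, an actin-binding protein, at 19.7 and 12.9 FPKM in KYSE70 and at 4.69 and 7.01 FPKM in KYSE450.

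Of the proteins that background knowledge links to NMR, NSUN2, an RNA methyltransferase, had log2 changes of 0.01 in KYSE70 and -0.30 in KYSE450, and BPTF, a chromatin remodelling subunit, of 0.03 and -0.07. NSUN2 stood at 105 and 106 FPKM in KYSE70 and at 146 and 118 FPKM in KYSE450, and the limma adjusted p was 0.902.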

How the data were processed

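RNA-seq values per gene were taken from 1 deposited file per library. No header or label names their unit; from the values, the authors' deposited numbers behave as FPKM, reads per kilobase scaled to the library total. TopHat2 2.0.9 and HTSeq 0.6.1, with the build hg19, are listed per the submitters' processing notes, and the sources used here give no roles, annotation or strand setting. Within all 30872 genes above 0 in at least 2 libraries, values were whole multiples of 1 step (tolerance 0.02), which gave the reads used for counting intervals (95%, exact binomial, counting error only), for a floor of 3 reads and for voom. For genes above 0 in few libraries, the search for a step could succeed on almost any values, so it does not check their reads. Gene types and coordinates come from GENCODE release 29 on GRCh38, where 45342 of 48162 identifiers matched.

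Genes with a mean of at least 1 FPKM in the 4 libraries were fitted as log2(FPKM + 1), a scale that understates changes of low genes, in limma 3.58.1 (trend, R 4.3.3) with line as a block and Benjamini-Hochberg adjustment over 13977 genes. The script was tested on simulated data with the same spread for every gene and the same shift in both lines. Such data cannot show whether the calls made here hold. Libraries with the same number come from the same line, so line pairs them. The genes named are up to 15 called genes per direction, 10 shared genes per direction by the smaller change of the lines, up to 10 per direction and line with a change of at least 1 in 1 line and under 0.25 in the other (filled to 5 from 0.5), 5 opposite genes per direction, and up to 4 members per list, drawn on for the lists described, with NSUN2, BPTF, MMP3 and MMP10 always; others were named after their values were seen. The members, the 36 gene lists and the fit were chosen with earlier results of these data known. In these bulk samples, fewer cells of a type and less RNA per cell cannot be told apart. The alternatives changed the pseudocount, filter, scaling, block, libraries and test.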

Additional observations from a re-analysis of the deposited data

Results flagged for a closer look

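In 10 genes that the rule for named genes had picked as opposite, the change had 1 sign in KYSE70 and the other in KYSE450. With 1 library per line and group the difference between the lines was not tested. In log2, KYSE450 minus KYSE70, it was 2.09 for SLPI, 2.09 for IGFBP6, 1.86 for the signal recognition particle RNA RN7SL1, 1.79 for the noncoding RP11-109M17.2 and 1.07 for NEBL. It was -3.00 for AL606500.1, -1.38 for the pseudogene RP11-258C19.4, -1.61 for AL031320.1, -1.22 for LOXL2 and -1.07 for MTRNR2L12, a nuclear copy of a mitochondrial sequence. AL606500.1 rested on 1 to 6 reads per library, and the 95% counting interval of its log2 ratio of reads held 0 in both lines (-0.83 to 4.99 in KYSE70 and -7.73 to 1.23 in KYSE450). In KYSE70 the interval also held 0 for AL031320.1 (9 and 13 reads), RP11-258C19.4 (26 and 41) and RP11-109M17.2 (10 and 3). SLPI in KYSE450 (0.433 FPKM in the control) and IGFBP6 in KYSE70 (1.81 FPKM in the control) were at 0.272% and 0.267% of the level in the other line, whose median trace was 0.251% and 0.263%, the second over markers that include IGFBP6; with overexpression the shares were 2.53% and 0.0150%. Groups of 2 libraries are too small for a search for single samples that stand apart.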

How the results depend on the processing

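The 10 higher and 2 lower calls became 0 and 0 with a pseudocount of 0.1, no filter on low values, median-ratio scaling, quantile normalization, GC and length trends removed, all 8 libraries in the fit, and no replicate block; voom on recovered reads gave 22 higher and 5 lower. Without each library in turn, the fit of the remaining libraries of all 8 takes the change from 1 line, so its calls are not compared. A minimum of 5 FPKM gave 15 calls in all, 9 of them shared with the 12. The prior degrees of freedom, which limma estimates from spreads with 1 degree of freedom, were 14.0 in the reported fit and 1.72 to 8.71 in the fits that called 0 with 4 or 8 libraries. The pairing by line is that block; without it 0 genes had an unadjusted p under 0.05, against 146 to 1265 in the other fits that called 0 with 4 or 8 libraries.

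Genes at least 2-fold higher in KYSE70 went from 17 to 113 with the pseudocount of 0.1 and to 10 with a minimum of 5 FPKM, and those lower from 14 to 105 and 7, or 24 with no filter. In KYSE450 the 43 higher became 132 and 24, and the 14 lower 58 and 6. The 101 genes with a log2 change of at least 0.32 in both lines became 241, 182 with no filter and 34 with the minimum of 5 FPKM, and the 52 lower 135, 98 and 15, or 33 with GC and length trends removed. No mean change of a gene outside chromosome Y described as rising or falling or ranked by its smaller change, and no median of the basal, integrin, growth factor, mitotic, replication, NRF2 or stress response lists changed sign under the alternatives run. For the genes, the stable sign was nearly fixed in advance, since each had the same sign in both lines. The filter, the block and the fit of all 8 libraries leave a gene's mean change as it was. The cause of the lost calls was not tested.

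Of 65 genes named outside the lists, 11 had under 100 reads in each of the 4 libraries, which limits their changes: MMP3, AL606500.1, AC006014.1, AL031320.1, RP11-331F9.10, RP11-109M17.2, RP11-258C19.4, RP3-406P24.3, RP11-121A14.2, RP11-159F24.5 and RP11-410L14.2.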

Other observations

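NUPR1, a stress-induced nuclear protein gene named here after its values were seen, stood at 27.9 and 37.3 FPKM in KYSE70 and at 13.4 and 70.4 FPKM in KYSE450, control first, with a mean log2 change of 1.36 (SE 0.26, n = 2 lines, limma adjusted p 0.0910). SPP1, the osteopontin gene, stood at 172 and 498 FPKM in KYSE70 and at 0.501 and 0.107 FPKM in KYSE450, there 0.291% and 0.0215% of the KYSE70 level, and was also named after its values were seen. It is one of the 11 KYSE70 markers of the trace between the lines, whose median in KYSE450 was 0.251% and 0.0693%. In the knockdown arm it stood at 342 FPKM in the KYSE70 control and 234 FPKM with knockdown.

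Sterol synthesis genes, which SREBP factors regulate together, lay below 0 in KYSE70 in 23 of 24 cases (all genes: 48.7%), with a median of -0.16. In KYSE450, 16 lay above 0 (all genes: 43.9%), with a median of 0.04. HMGCS1, an early enzyme of the pathway, stood at 109 and 96.6 FPKM in KYSE70 and at 39.0 and 33.6 FPKM in KYSE450. It was 1 of the 8 members below 0 in both lines (all genes: 27.8%). No member passed the test. Of the long noncoding RNAs in a list of well-known ones, MIR31HG (-0.44 and -0.55), LINC00152 (-0.24 and -0.30) and DANCR (-0.15 and -0.34) were below 0 in both lines, KYSE70 first, and NEAT1 was above 0 in both (0.18 and 0.23); none passed the test. The list of lysosomal genes that holds GPNMB had medians of 0.01 (KYSE70) and 0.05 (KYSE450), with the regulator TFEB at 0.32 and 0.34 and MITF at -0.51 and -0.07.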
